A study of Arabidopsis thaliana with 6 samples.

Results

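Among 32548 Arabidopsis thaliana genes measured by RNA-seq, 16 had almost no reads in the wild type and reads in every library of both the hda19 and the hdip1/2/3 mutant. They were chosen by their deposited values, which are read counts adjusted for library size and are called adjusted read counts here. The rule asked for at most 5 in both wild-type libraries, and at least 10 in each of the 4 mutant libraries. The study compared 20-day-old plants of 3 genotypes in the Col-0 background, labelled as seedlings, with 2 libraries of total RNA each. These were the wild type, the T-DNA insertion mutant hda19 (labelled hda19-/-) and the hdip1/2/3 triple mutant (labelled hdip1-/-, hdip2-/- and hdip3-/-), in which a CRISPR-Cas9 mutation of HDIP2 was brought into an hdip1/3 double mutant made in the same way. All plants grew on plates and soil at 22 °C with 16 h of light and 8 h of darkness, and each genotype stands for a single described line. The methods of the study call the libraries of a genotype independent biological replicates, and the labels give no more on their origin. In whole plants, fewer cells of a type and less RNA per cell cannot be told apart.

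Histone deacetylases remove acetyl groups from histone tails, and acetylated histones are typically found at genes that are being transcribed. HDA19 is a deacetylase of the RPD3 type that works in complexes with SIN3-like scaffold proteins, and it is known for keeping seed genes off in seedlings and for roles in hormone and stress responses. HDIP1, HDIP2 and HDIP3 are related proteins of flowering plants that bind HDA19 in these complexes.

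The sequences of 7 stretches are shown because the results return to them. The first set holds the 250 bases before the annotated transcript start (TAIR10.1, RefSeq annotation) of the gene with the highest mutant counts, of ACS7, of the gene with no wild-type read, and of a gene with a TATA box near its start. They are written from the 5′ end in the direction of transcription, with matches to the searched motifs in capitals. ACS7 carries a W-box on the opposite strand (GGTCAA, the complement of TTGACC) 158 bases before its start, and AT1G63055 a TATA box (TATAAA) 32 bases before its start. The stretches of AT2G01422 and AT4G05540 hold no searched motif.
AT2G01422, chr2:183690-183939, plus strand: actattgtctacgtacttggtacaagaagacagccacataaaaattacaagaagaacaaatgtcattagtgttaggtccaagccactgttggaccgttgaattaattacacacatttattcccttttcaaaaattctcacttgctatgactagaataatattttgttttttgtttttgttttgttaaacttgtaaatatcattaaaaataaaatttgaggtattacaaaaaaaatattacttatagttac
ACS7 (AT4G26200), chr4:13274950-13275199, plus strand: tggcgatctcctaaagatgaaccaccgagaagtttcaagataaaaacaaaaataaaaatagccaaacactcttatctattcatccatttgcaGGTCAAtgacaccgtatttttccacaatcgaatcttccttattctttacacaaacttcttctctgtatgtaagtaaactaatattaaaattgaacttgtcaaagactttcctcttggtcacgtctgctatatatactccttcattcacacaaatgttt
AT4G05540, chr4:2821066-2821315, minus strand: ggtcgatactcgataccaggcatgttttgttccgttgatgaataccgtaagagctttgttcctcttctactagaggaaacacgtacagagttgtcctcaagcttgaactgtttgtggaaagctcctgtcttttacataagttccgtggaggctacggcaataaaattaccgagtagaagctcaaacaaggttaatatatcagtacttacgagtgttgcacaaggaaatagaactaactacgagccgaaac
AT1G63055, chr1:23379415-23379664, plus strand: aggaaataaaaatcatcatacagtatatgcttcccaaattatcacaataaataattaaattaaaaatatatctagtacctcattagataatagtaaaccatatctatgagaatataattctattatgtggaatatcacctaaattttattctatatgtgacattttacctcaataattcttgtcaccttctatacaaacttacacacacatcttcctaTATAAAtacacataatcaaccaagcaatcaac

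A second set shows the same stretch of the 2 genes whose promoters hold an exact direct repeat of at least 20 bases, with both copies in capitals. In LTP4 the repeat is 29 bases long, and its copies begin 104 and 54 bases before the start. In AT3G06655 it is 26 bases long, with copies beginning 142 and 80 bases before the start. Of 32546 promoters, 1.61% hold a repeat of at least 20 bases, 0.35% one as long as that of LTP4 and 0.61% one as long as that of AT3G06655. The repeats were looked for after the sequences had been read.
LTP4 (AT5G59310), chr5:23925958-23926207, minus strand: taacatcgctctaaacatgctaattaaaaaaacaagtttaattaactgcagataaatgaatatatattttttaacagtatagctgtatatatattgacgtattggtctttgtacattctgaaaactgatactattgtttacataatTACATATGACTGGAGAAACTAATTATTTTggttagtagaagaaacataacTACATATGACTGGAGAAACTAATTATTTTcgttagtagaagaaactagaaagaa
AT3G06655, chr3:15612837-15613086, minus strand: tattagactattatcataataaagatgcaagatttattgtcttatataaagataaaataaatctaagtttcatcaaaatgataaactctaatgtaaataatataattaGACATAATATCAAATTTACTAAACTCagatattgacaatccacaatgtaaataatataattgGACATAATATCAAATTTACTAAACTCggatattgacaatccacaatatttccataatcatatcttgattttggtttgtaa

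The third set is the transcript of AT3G06655, a long non-coding RNA that the annotation gives as a single exon without a name or a role. It is shown whole because a similar stretch lies elsewhere in the genome.
AT3G06655 transcript, chr3:15612537-15612836, minus strand: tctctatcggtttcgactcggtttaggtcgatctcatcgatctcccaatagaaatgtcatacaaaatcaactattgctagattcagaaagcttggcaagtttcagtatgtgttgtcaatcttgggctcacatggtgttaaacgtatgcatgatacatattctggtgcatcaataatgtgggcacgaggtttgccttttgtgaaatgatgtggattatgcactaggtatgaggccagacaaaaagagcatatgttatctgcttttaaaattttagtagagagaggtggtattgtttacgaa

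A recovery of whole reads from the adjusted counts gave between 43906641 and 48407739 reads on genes per library, so the limits of 5 and 10 correspond to about as many reads in such a library. None of HDA19, HDIP1, HDIP2 and HDIP3 was called lower in the mutants by the limits given below, and a count over a whole gene does not test an insertion or a small edit. In hda19 the log2 fold change of HDA19 was -0.28 (unadjusted P = 0.215 by limma-trend). Those of HDIP1, HDIP2 and HDIP3 in hda19 were 0.77, 0.96 and 0.64 (unadjusted P = 0.00539, 0.00358 and 0.0136 by limma-trend), within the fold limit. Among organ markers, the summed adjusted counts of 5 root genes ranged from 6489 to 6807 in the wild type, from 9045 to 11032 in hda19 and from 7884 to 8693 in hdip1/2/3. Of these 5, PYK10, a root glucosidase that makes up most of the sum, was called higher in hda19 (log2 fold change 1.14). In hdip1/2/3 its log2 fold change was 0.82 (unadjusted P = 0.000662 by limma-trend), within the fold limit. SCR and SHR, regulators of root patterning, had log2 fold changes of -0.54 and -0.42 in hda19 and -0.65 and -0.44 in hdip1/2/3 (unadjusted P = 0.00609, 0.0326, 0.002 and 0.0255 by limma-trend), within the fold limit. Of 9 flower genes, 2 were called lower in hdip1/2/3, and of 2 pollen genes 1 was called lower in hda19. Of 5 tapetum genes and 3 leaf genes, limma-trend called 0 in either mutant, and the leaf sum ranged from 1151154 to 1558790 in the wild type and from 1173354 to 2082649 in the mutants. The part of these differences in the results below was not tested.

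**Figure D1:**
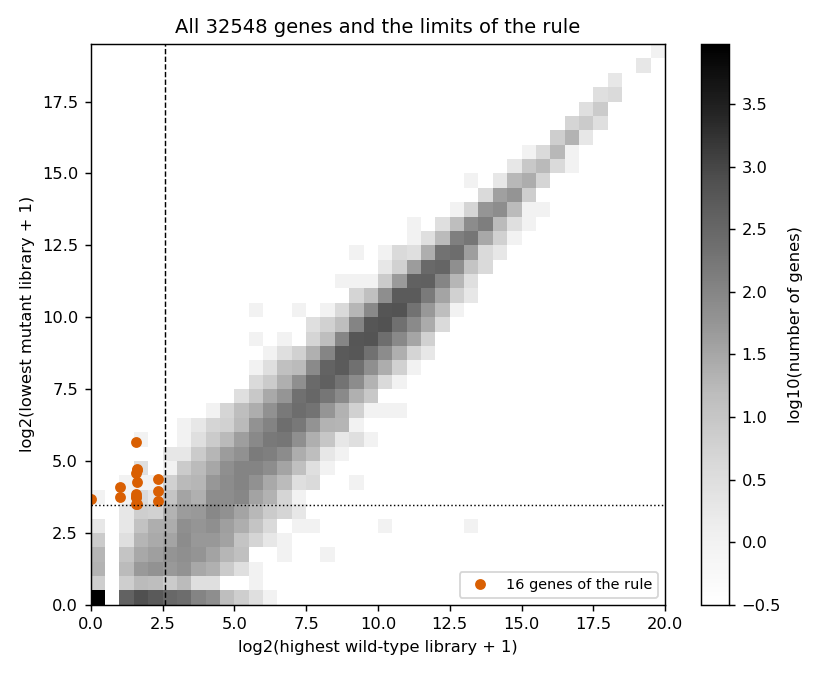
Each of 32548 genes by its highest wild-type library (horizontal) and its lowest mutant library (vertical), both as log2 of the adjusted read count plus 1. Grey shades give the number of genes in a bin on a log10 scale, orange points the 16 genes of the rule, and the dashed and dotted lines the limits of 5 and 10. The 16 genes lie in the upper left corner, and most other genes left of the dashed line lie near 0 on the vertical axis.

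The low wild-type side was common and the mutant side rare. At most 5 adjusted reads in both wild-type libraries were found for 11642 genes, of which 43 reached 10 in both hda19 libraries, 36 reached 10 in both hdip1/2/3 libraries and 16 reached it in all 4. The limit was thus met by 27 genes in hda19 alone and by 20 in hdip1/2/3 alone. In the opposite direction, 20 genes had at least 10 in both wild-type libraries and at most 5 in all 4 mutant libraries. The 2 wild-type libraries served as controls for both mutants.

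The wild type was rarely empty. AT4G05540 was the only one of the 16 with 0 reads in both wild-type libraries, and 2 genes had a single wild-type read in sum. A further 3 had 2 reads, 3 had 3, 5 had 4 and 2 had 6. The genes with 6 wild-type reads were DLAH and AT1G70990, for which the exact 95% Poisson interval of the sum is 2.2 to 13.06 (counting error only). Summed over all 16 genes, the recovered reads were 28 and 21 in the wild-type libraries, 402 and 651 in those of hda19 and 472 and 447 in those of hdip1/2/3. The second hda19 library was above the first in 13 of 16 genes, and the second hdip1/2/3 library was above the first in 8. The share of all genes with this order was not counted, so these counts are not read as a trait of the 16 genes.

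The genes just beyond the limits had values close to those just inside. AT1G48400 had 5.03 and 2.03 in the wild type and between 20.8 and 29.5 in the mutants, and AT5G46960 and AT2G29740 had a wild-type maximum of 5.03 and 5.05. On the mutant side, AT5G22560, AT5G21960 and AT2G30670 had a lowest mutant library of 9.81, 9.56 and 9.48. Inside, the lowest mutant libraries were 10.3 in AT3G60940, 10.3 in AT1G21326 and 11.3 in AT1G70990, and the highest wild-type libraries were 4.04 in AT1G70990 and 4.02 in DLAH.

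**Figure D2:**
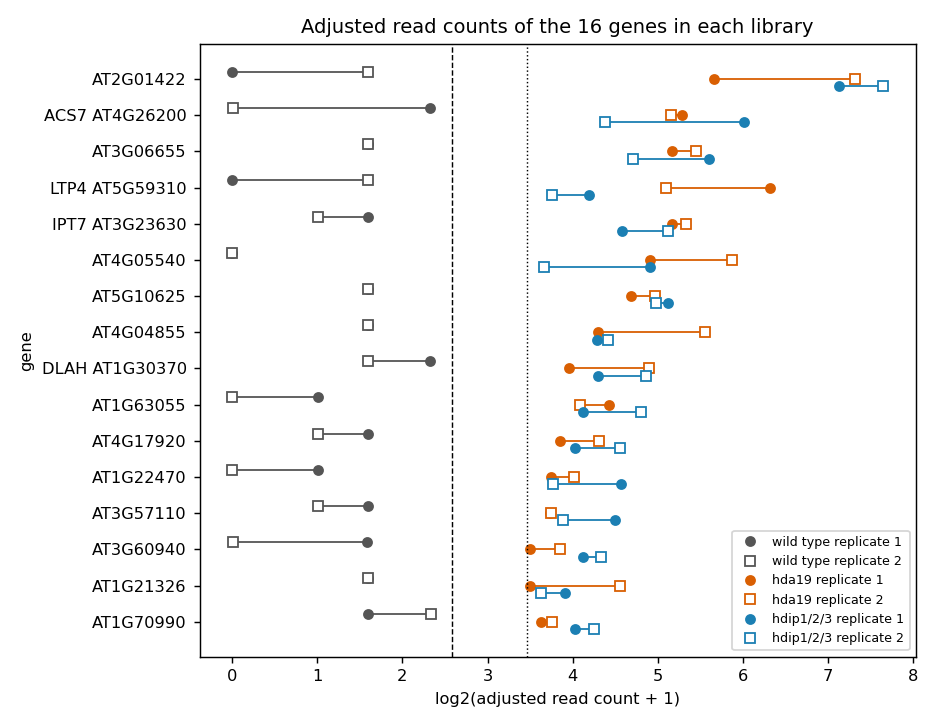
Adjusted read count of each of the 16 genes in each of the 6 libraries, as log2 of the value plus 1. Filled circles are replicate 1, open squares replicate 2, a line joins the 2 libraries of a genotype, and the dashed and dotted lines mark the limits of 5 and 10. Wild-type points lie between 0 and 2.33 on this scale, and AT2G01422 reaches furthest to the right.

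The hormone genes among the 16 encode enzymes of ethylene and cytokinin synthesis. ACS7 (AT4G26200, chr4:13275200-13277188) encodes an ACC synthase, which makes the direct precursor of ethylene. It had 4.02 and 0.005 in the wild-type libraries, 38.0 and 34.6 in those of hda19 and 63.6 and 19.9 in those of hdip1/2/3. The hda19 libraries lay between the hdip1/2/3 libraries, which differed 3.2-fold. The log2 difference from the wild type was 4.05 (standard error 0.85) in hda19 and 4.03 (0.85) in hdip1/2/3, on the log2(value + 1) scale used throughout, on which changes from values near 0 come out too small. Without the first wild-type library, which holds all 4 wild-type reads of ACS7, these became 5.21 and 5.19, and without the second 2.89 and 2.87.

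IPT7 (AT3G23630, chr3:8488695-8490266) encodes an isopentenyltransferase, which catalyses the first step of cytokinin synthesis. Its adjusted counts were 2.01 and 1.01 in the wild-type libraries, 35.0 and 39.2 in those of hda19 and 22.9 and 33.7 in those of hdip1/2/3. Every hda19 library was above every hdip1/2/3 library, and all 4 were at least 11.4 times the higher wild-type value. Its log2 difference from the wild type was 3.95 (standard error 0.49) in hda19 and 3.55 (0.49) in hdip1/2/3.

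The genes of lipid-binding and lipid-cleaving proteins were LTP4 and DLAH. LTP4 (AT5G59310, chr5:23924990-23925957) encodes a small secreted lipid transfer protein. It had 0.001 and 2.02 in the wild-type libraries, 79.0 and 33.3 in those of hda19 and 17.3 and 12.5 in those of hdip1/2/3. The ranges of the mutants did not overlap, and hda19 was the higher one. DLAH (AT1G30370, chr1:10719065-10720843), an alpha/beta-hydrolase named for its likeness to DAD1, a lipase of jasmonate synthesis, had 4.02 and 2.03 in the wild-type libraries, 14.5 and 28.7 in those of hda19 and 18.6 and 28.0 in those of hdip1/2/3. For DLAH the mutants overlapped, and the lowest mutant library was 3.6 times the higher wild-type library.

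Regulatory proteins were represented by 3 genes. AT5G10625 (chr5:3358787-3359817) encodes a relative of FPF1, which promotes flowering when overexpressed, and had 2.01 and 2.02 in the wild-type libraries, 24.7 and 30.3 in those of hda19 and 33.6 and 30.6 in those of hdip1/2/3. The ratio of its higher to its lower library was 1.23 in hda19 and 1.1 in hdip1/2/3, and all hdip1/2/3 values were above all hda19 values. AT4G17920 (chr4:9963051-9964090) encodes a protein of the RING/U-box class, many of which are ubiquitin ligases. It had 2.01 and 1.01 in the wild-type libraries, 13.4 and 18.8 in those of hda19 and 15.3 and 22.4 in those of hdip1/2/3. AT1G21326 (chr1:7468765-7469995) encodes a VQ motif protein, a class of short proteins of which many bind WRKY transcription factors, and had 2.01 and 2.02 in the wild-type libraries, 10.3 and 22.5 in those of hda19 and 14.1 and 11.4 in those of hdip1/2/3. In both of these genes the mutants overlapped.

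Enzymes of nucleic acids and nucleotides made up a further group. AT4G05540 (chr4:2818521-2821065), a P-loop protein of a class that binds and cleaves nucleoside triphosphates, had 0 reads in either wild-type library, 28 and 64 in hda19, and 27 and 10 in hdip1/2/3. Against a floor of 3 reads per wild-type library, its mean over the mutant libraries was at least 10.8-fold higher and its lowest mutant library at least 3.33-fold higher. AT3G57110 (chr3:21134776-21135532), annotated as exonuclease V, which cuts single-stranded DNA in yeast, had adjusted counts of 2.01 and 1.01, 12.3 and 12.4, and 21.6 and 13.7, in the order wild type, hda19, hdip1/2/3. AT3G60940 (chr3:22521446-22523701), a putative endonuclease or glycosyl hydrolase, had 2.01 and 0.003, 10.3 and 13.4, and 16.3 and 19.1 in the same order. In the last 2 genes both hdip1/2/3 libraries were above both hda19 libraries.

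Of the 3 protein-coding genes without a known role, AT1G63055 (chr1:23379665-23380669) had 1.01 and 0.001 in the wild-type libraries, 20.5 and 15.9 in those of hda19 and 16.4 and 26.9 in those of hdip1/2/3. AT1G22470 (chr1:7932777-7933604) had 1.01 and 0.001, 12.4 and 15.2, and 22.7 and 12.7. Both had a single wild-type read in sum and overlapping mutants. AT1G70990 (chr1:26767250-26768215), of the proline-rich family, had 2.02 and 4.04, 11.3 and 12.5, and 15.3 and 18.0. It showed the smallest difference from the wild type of the 16 genes on the log2 scale, 1.72 (standard error 0.52) in hda19 and 2.17 (0.52) in hdip1/2/3.

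The non-coding RNAs had the highest levels per length. AT2G01422 (chr2:183940-184734), annotated as other RNA, had 0.001 and 2.02 in the wild-type libraries, 49.6 and 158 in those of hda19 and 139 and 200 in those of hdip1/2/3, so that the lower hda19 library stood apart from the other 3. AT3G06655 (chr3:15612537-15612836) had 2.01 and 2.02, 35.0 and 42.8, and 47.5 and 25.2. AT4G04855 (chr4:2186834-2187073) had 2.01 and 2.02, 18.6 and 45.8, and 18.5 and 20.3, with the second hda19 library alone above the rest. As a mean adjusted read count per kilobase of annotated transcript, these 3 RNAs had 131, 130 and 134 in hda19, and 213, 121 and 80.8 in hdip1/2/3, in the order given. LTP4 followed with 67.6 in hda19 and had 18.0 in hdip1/2/3, and the other 12 genes lay between 8.76 and 34.5 in either mutant. Per kilobase the wild type ranged from 0 to 8.41.

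Genes were called by a fold change beyond 2 (log2 fold change beyond 1) with an unadjusted P value under 0.05 in one limma-trend fit of all 6 libraries. Since the rule used these contrasts, the counts only describe the 16 genes. All 16 were called higher in hda19, where 4.65% of the 23685 genes tested were called higher and 2.09% lower, and all 16 in hdip1/2/3, where 4.92% were called higher and 4.07% lower. With an adjusted P value under 0.05 in the direction of higher expression, 10 were called in hda19 (background 2.15%) and 15 in hdip1/2/3 (background 4.35%). By limma-voom on the recovered reads these counts were 6 and 11. The median log2 difference from the wild type was 3.35 in hda19, with a range of 1.72 to 5.69, and 3.44 in hdip1/2/3, with a range of 2.17 to 6.59, where the median of all genes tested was 0 in both.

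The comparison between the mutants was not part of the rule, although its minimum of 10 limits how low either mutant can be. LTP4 was the only gene of the 16 that differed by the limits above. It was lower in hdip1/2/3 by a log2 difference of -1.73 (standard error 0.70, unadjusted P = 0.0398, adjusted P = 0.213 by limma-trend), with both hdip1/2/3 libraries below both hda19 libraries. Across all genes, 2.49% were called lower and 1.14% higher in hdip1/2/3 than in hda19, so 1 of 16 is near this background, and the call was lost when any mutant library was left out, with a log2 difference from -2.35 to -1.12. Without the first hda19 library AT4G04855 was called instead (-1.20, unadjusted P = 0.0261, adjusted P = 0.401 by limma-trend), and without the first hdip1/2/3 library AT4G05540 (-1.72, unadjusted P = 0.0427, adjusted P = 0.23).

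With an adjusted P value under 0.05, limma-trend called 0 of the 16 genes and 0 of all genes between the mutants (0%), although 21.9% of all genes had an unadjusted P value under 0.05, among them 1 of the 16. By limma-voom on the recovered reads, 0 genes passed the adjusted limit and 5401 genes, 1 of the 16 among them, the unadjusted one. The median of hdip1/2/3 minus hda19 was 0.18 on the log2 scale for the 16 genes and 0.00 for all genes, and on this scale 9 of the 16 differences were above 0 and 7 below.

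Within each gene, the libraries do not set close bounds on this difference. In AT2G01422, the gene with the largest log2 difference towards hdip1/2/3, it was 0.90 with a 95% interval of -0.73 to 2.54. In ACS7 it was -0.02 with an interval of -1.99 to 1.95. In AT5G10625 the interval was -0.82 to 1.26 around 0.22. The mutants overlapped in 10 genes, both hda19 libraries were the higher ones in IPT7 and LTP4, and both hdip1/2/3 libraries in AT1G70990, AT3G57110, AT3G60940 and AT5G10625. Apart from LTP4, the genes without overlap had unadjusted P values between 0.416 and 0.636 by limma-trend. The share of all genes without overlap was not counted, so this count is not read as a difference between the mutants.

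**Figure D3:**
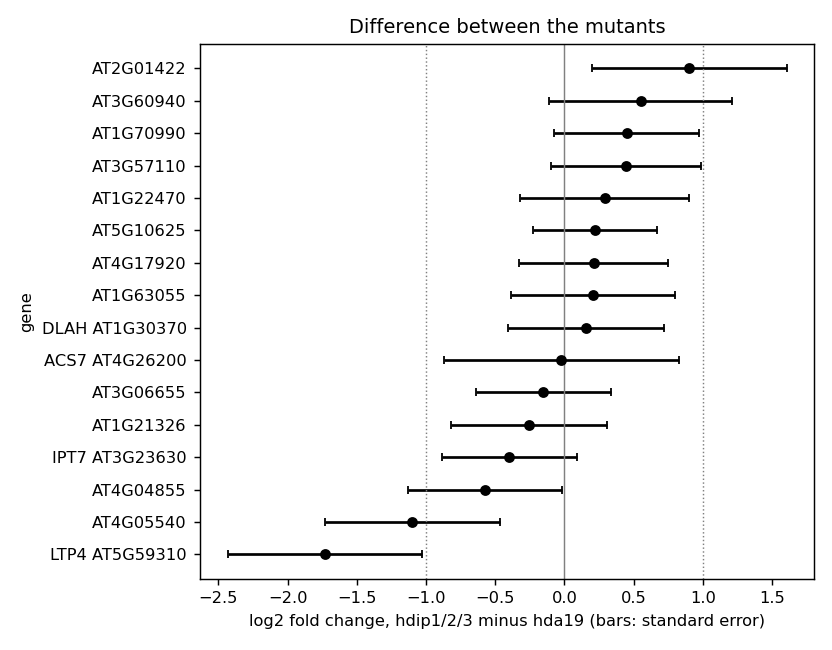
Log2 fold change of hdip1/2/3 minus hda19 for each of the 16 genes, with bars of 1 standard error from the limma-trend fit of 6 libraries. Dotted lines mark the fold limits. LTP4 lies at -1.73 and AT4G05540 at -1.10, and the other 14 genes lie within the limits.

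The 16 genes lay apart from each other. Chromosomes 1 to 5 held 5, 1, 4, 4 and 2 of them, 10 were on the minus strand, and 0 of 16 had another as the next gene or the one after it. The closest pair, AT1G21326 and AT1G22470, lay 462781 bases apart. Compared with the genes tested, they were short and often had a single exon. Their median transcript length was 998.5 bases against 1615, and 68.8% had 1 exon against 20.4%. Among the 11642 genes with low wild-type values, however, the median length was 537 bases and 55.2% had 1 exon. Non-coding RNAs made up 18.8% of the 16, 4.2% of the genes tested and 27.8% of the genes low in the wild type. The median GC content of the transcripts was 39.9%, and 41.2% for the genes tested.

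A list of genes with increased histone H3 acetylation (H3Ac) in hdip1/2/3, from the study's supplementary tables, holds AT1G22470, AT1G70990, AT2G01422 and AT3G60940. These are 4 of the 16 (25%), where 3.02% of all genes, 3.77% of the genes tested and 1.23% of the genes low in the wild type were listed. The share among other genes called higher in hdip1/2/3 was not counted. The copy of the list used here has 983 genes and may not be whole, so membership is given without a test.

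Of the 32 genes that flank the 16, 21 could be tested, and 14 of these had a wild-type mean of at least 100. Of the 21, 2 were called higher in each mutant, where 4.65% of all genes tested were called in hda19 and 4.92% in hdip1/2/3. By limma-trend 0 were called lower in hda19 and 1 in hdip1/2/3, against 2.09% and 4.07% of all genes. The median of their log2 fold changes was -0.01 in hda19 and 0.20 in hdip1/2/3. PIN4, an auxin efflux carrier, lies 175 bases from AT2G01422 and had between 4945 and 6392 in all 6 libraries, with log2 fold changes of 0.00 (standard error 0.13) and 0.18 (0.13). IBR1, an enzyme that turns a storage form of auxin into active auxin, lies 2 bases from AT4G05540 and had between 1399 and 1621, with log2 fold changes of -0.04 (0.12) and 0.05 (0.12). AT5G10630, 14 bases from AT5G10625, had between 814.5 and 1237.

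The neighbours called higher in both mutants were LTP3 and AT4G04865. LTP3, a further lipid transfer protein gene, lies 2996 bases from LTP4 and had 39.2 and 71.8 in the wild-type libraries, 416 and 137 in those of hda19 and 225 and 207 in those of hdip1/2/3. Its log2 fold changes were 2.15 (standard error 0.52, unadjusted P = 0.00346, adjusted P = 0.0779 by limma-trend) and 2.00 (0.52, unadjusted P = 0.00508, adjusted P = 0.0568). In hda19 the first library was the higher one in both LTP3 and LTP4, and the LTP3 call was lost in both mutants without the first wild-type library (1.72 and 1.57). In hdip1/2/3 it was also lost without either hdip1/2/3 library (1.94 and 2.06). A stretch of 519 bases of the LTP4 transcript is 86.7% identical to LTP3.

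AT4G04865 is a long non-coding RNA 1032 bases from AT4G04855. It had 9.05 and 3.05 in the wild-type libraries, 25.8 and 34.8 in those of hda19 and 33.4 and 12.8 in those of hdip1/2/3, and its calls (unadjusted P = 0.00833 and 0.0263, adjusted P = 0.116 and 0.115 by limma-trend) were lost without the second wild-type library (1.62 and 1.12). The hda19 call was also lost without either hda19 library (2.49 and 2.07), and the hdip1/2/3 call without either hda19 library or the first hdip1/2/3 library (1.77 and 1.12). AT4G26190, 8179 bases from ACS7, was called lower in hdip1/2/3 (-1.33, standard error 0.40, unadjusted P = 0.0108, adjusted P = 0.0767). That call was lost without the first wild-type library (-0.88) and without the second hdip1/2/3 library (-0.76), and its P value rose above the limit without either hda19 library. AT4G17940, next to AT4G17920, was the only flanking gene with an adjusted P value under 0.05, in hdip1/2/3 (log2 fold change 0.58, adjusted P = 0.0478 by limma-trend), and stayed within the fold limit.

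**Figure D4:**
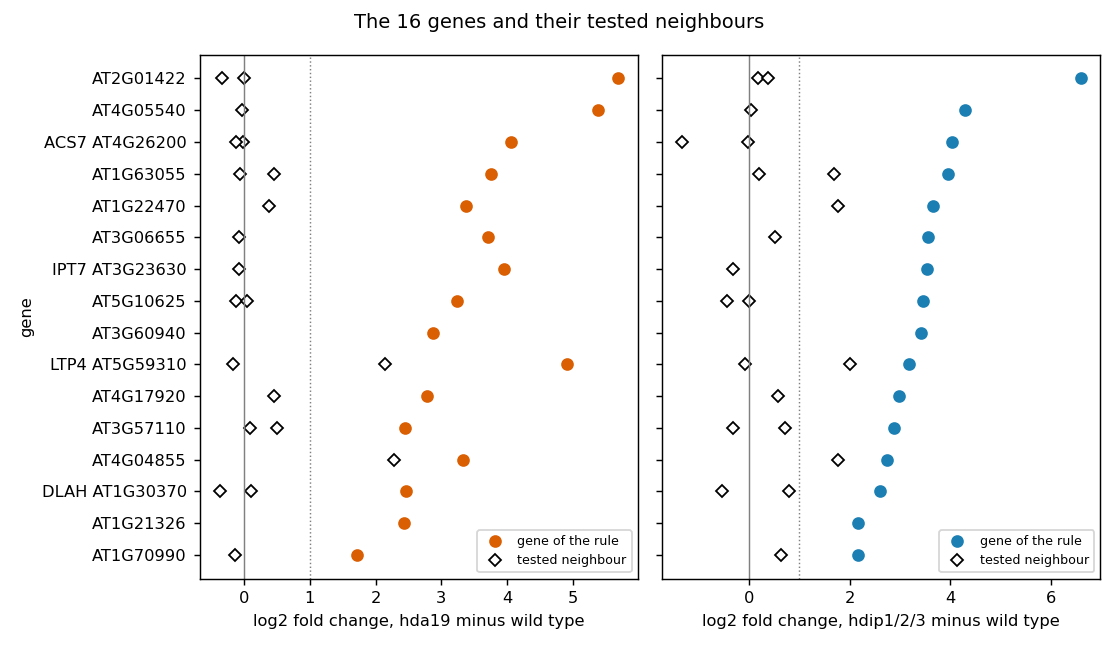
Log2 fold change against the wild type of the 16 genes (filled) and of their 21 tested direct neighbours (open), in hda19 on the left and hdip1/2/3 on the right. The solid line marks no change and the dotted line the upper fold limit. In hda19, 2 open symbols lie beyond that line, the neighbours of LTP4 and AT4G04855. In hdip1/2/3 the 2 further open symbols beyond it, next to AT1G63055 and AT1G22470, come from genes with few reads that were not called.

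The shares of promoters with a W-box or a TATA box lay near those of all promoters. From 250 bases before to 50 after the start, on both strands, the W-box (TTGACC or TTGACT), the site of WRKY factors, was present in 31.2% of the 16 promoters and 31.8% of all 32546. The TATA box (TATAAA) was present in 56.2% against 50.6%, and the as-1 core (TGACG) in 18.8% against 23.0%. The G-box (CACGTG) and the core CGCGTT were found in 0 of 16, and in 7.1% and 3.4% of all promoters. The GCC box (GCCGCC) was found in AT5G10625 alone and in 2.6% of all promoters. The RY repeat (CATGCA) and the telo-box (AAACCCTA) were each found in LTP4 alone, after the start, and in 10.1% and 6.2% of all. As 1 gene of 16 is 6.2%, these shares are coarse.

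For some of the genes, reads may be lost to or taken from close copies, since only uniquely mapped reads were counted. AT1G21326 has a copy of 1050 bases with 95.8% identity at AT1G21320, which had 16.1 and 13.2 in the wild-type libraries, 30.7 and 7.61 in those of hda19 and 10.8 and 5.78 in those of hdip1/2/3 and was not called. The 461 bases of AT2G01422 with 89.8% identity to AT3G28900 lie in a gene with between 2193 and 3096 in every library. The exonuclease V genes are 90.1% identical over 523 bases, and the second one, AT5G60370, had between 418 and 471. AT4G04855 has stretches of 106 bases with 99.1% identity and of 136 bases with 96.3% identity within the same region, and overlaps a non-coding RNA on the opposite strand. A further stretch of 137 bases is 92.0% identical to AT4G13560, which had 549 and 395.5 in the wild-type libraries, 678 and 926 in those of hda19 and 631 and 456 in those of hdip1/2/3, so that the second hda19 library was the highest in both genes. The transcript of AT3G06655 printed above has a stretch of 296 bases with 89.2% identity on chromosome 1, outside annotated genes. AT3G60940 shares 115 bases with 99.1% identity with AT3G61028, and AT1G63055 overlaps AT1G63057 on the same strand, so the levels of these genes are uncertain by what such reads contribute.

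The families of the 16 genes were looked at in the same fit, after the 16 genes were known. Of the 8 other genes tested with an ACS symbol, 4 were called higher in hda19 and the same 4, ACS2, ACS4, ACS8 and ACS11, in hdip1/2/3. None of the 8 was called lower in either. The set was taken by symbol alone, and whether each of its products makes ACC was not checked. Of all genes tested, 4.65% were called higher in hda19 and 4.92% in hdip1/2/3. ACS8 had 20.1 and 15.2 in the wild-type libraries, 112 and 73.5 in those of hda19 and 125 and 120 in those of hdip1/2/3. It rose by a log2 fold change of 2.31 (standard error 0.35, adjusted P = 0.0194 by limma-trend) and 2.74 (0.35, adjusted P = 0.00963). ACS11 had 60.4 and 52.6, 117 and 133, and 210 and 192, and its log2 fold changes were 1.13 (0.25, adjusted P = 0.064) and 1.81 (0.25, adjusted P = 0.0122).

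ACS2 had 2.02 and 11.1 in the wild-type libraries, 58.7 and 73.1 in those of hda19 and 17.5 and 28.0 in those of hdip1/2/3, with log2 fold changes of 3.46 (0.67, adjusted P = 0.0422) and 1.94 (0.67, adjusted P = 0.105 by limma-trend). ACS4 had 31.2 and 67.7, 109 and 116, and 128 and 160, with 1.27 (0.39, adjusted P = 0.142) and 1.62 (0.39, adjusted P = 0.05). Without the first wild-type library the call of ACS4 in hda19 (0.72) and that of ACS2 in hdip1/2/3 (0.94) were lost. Both calls were also lost without any of the mutant libraries, with a log2 fold change from 1.23 to 1.31 for ACS4 and from 1.62 to 2.26 for ACS2, and the call of ACS4 in hdip1/2/3 was lost without the second hdip1/2/3 library (1.46). ACS5, ACS6, ACS10 and ACS12 were not called, and ACS1 and ACS9 had no reads in any library. ACS10, which was not called, had between 4796 and 7096 in all libraries.

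**Figure D5:**
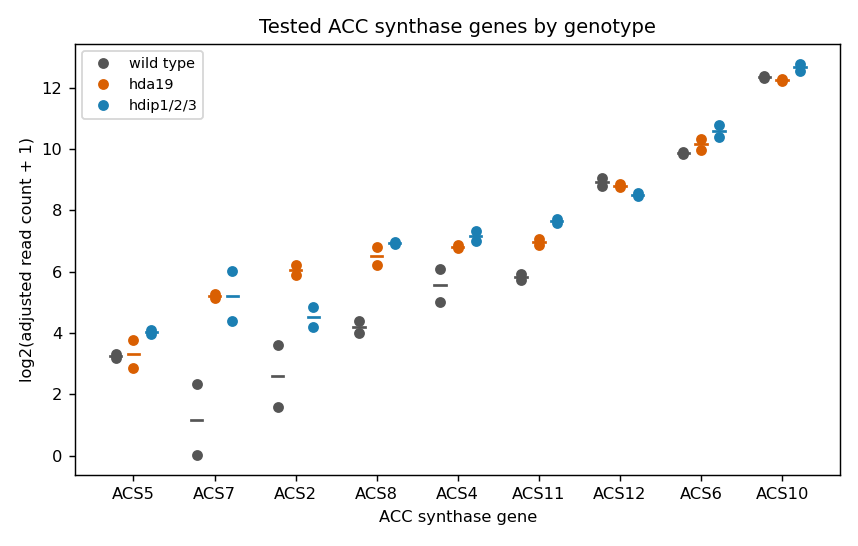
Log2 of the adjusted read count plus 1 for the 9 genes tested with an ACS symbol, ordered by mean level. Points are libraries, and horizontal marks give the mean of the 2 libraries of a genotype. In ACS2, ACS7, ACS8, ACS4, ACS11 and ACS6 the mutant points lie above both wild-type points. In ACS6, as in ACS10 and ACS12, the genotypes lie close together.

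Of the 5 other isopentenyltransferase genes tested, only IPT5 was called, in hdip1/2/3 (29.2 and 17.2 in the wild type, 70.4 and 50.0 in hdip1/2/3, log2 fold change 1.36, standard error 0.48, unadjusted P = 0.0222, adjusted P = 0.106 by limma-trend). That call was lost without the second wild-type library (a log2 fold change of 1) and without either hdip1/2/3 library. IPT3, with 1774 and 2308 in the wild type, had log2 fold changes of 0.17 and 0.51 and was not called. Of the 4 other genes tested with an LTP symbol and a number, LTP3 alone was called, in both mutants. The wider group of 139 genes described as lipid transfer proteins or 2S albumins was not counted in this way. In such small sets a single gene is a share well above the 4.65% and 4.92% of all genes called higher, so the counts show little. The relatives of AT5G10625, FPF1 and FLP1, had at most 10.2 in any library and were not called.

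Of 22 other VQ motif genes tested, 6 were called higher in each mutant and 0 lower, where 4.65% of all genes tested were called higher in hda19 and 4.92% in hdip1/2/3. AT1G68450 was called in hda19 alone and AT3G56880 in hdip1/2/3 alone. With an adjusted P value under 0.05 there were 2 in hda19 (background 2.15%) and 6 in hdip1/2/3 (background 4.35%). These 6 include AT5G46780, which stayed within the fold limit. The largest rise was that of AT4G20000, with 3.02 and 5.05 in the wild-type libraries, 33.0 and 75.3 in those of hda19 and 102 and 61.5 in those of hdip1/2/3. Its log2 fold changes were 3.37 (standard error 0.53, adjusted P = 0.0224 by limma-trend) and 4.02 (0.53, adjusted P = 0.0108), and its second wild-type library was just above the limit of 5. AT5G65170 had 134 and 123 in the wild type and rose in both mutants (adjusted P = 0.0262 and 0.0196). Of 236 other RING/U-box genes, 15 were called higher and 9 lower in hda19, and 15 higher and 6 lower in hdip1/2/3, against the backgrounds given above for all genes. Of 171 other alpha/beta-hydrolase genes these counts were 5 and 4 in hda19, and 6 and 5 in hdip1/2/3. Of 161 other P-loop genes they were 9 and 2, and 6 and 16.

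None of the 16 genes belonged to the seed maturation list of 19 genes, which includes the regulators LEC1, LEC2, FUS3 and ABI3 and the seed storage proteins. Of these 19, 7 had no reads in any library and 9 could be tested. By limma-trend 0 were called higher in either mutant, and ABI3, with 2.02 and 4.04 in the wild type and 0 in every mutant library, was called lower in both. The summed adjusted counts of the list were 50.3 and 22.3 in the wild-type libraries, 45.2 and 53.6 in those of hda19 and 26.0 and 21.5 in those of hdip1/2/3. The wild-type range overlapped that of each mutant, and both hda19 sums were above both hdip1/2/3 sums.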

How the data were processed

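RNA-seq values per gene of 6 libraries were used, 2 for each of 3 genotypes, grouped by the sample labels. The authors used HISAT2 for mapping to TAIR10 and featureCounts to count reads that mapped uniquely, and named cuffdiff and edgeR for comparing genotypes. The labels describe single-end reads of 50 nt, the methods longer paired-end reads. The deposited values are a signal per gene, made by the authors from counts by an adjustment for library size. From the values it was inferred that the authors deposited the quantile-adjusted pseudo-counts of edgeR. When this adjustment was undone, 195288 of 195288 values came out within 0.01 of a whole number. These recovered reads served for depth and for limma-voom. No column of sample values was left unused.

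A limma-trend fit of all 6 libraries on log2(value + 1) covered the 23685 genes that averaged 1 or more in any genotype (limma 3.58.1 in R 4.3.3) with Benjamini-Hochberg adjustment over all these genes. The limits of a log2 fold change of 1 and an unadjusted P value of 0.05 follow the methods of the study. Positions, names and promoters came from the RefSeq annotation of TAIR10.1, to which all 32548 identifiers matched. Similar stretches were searched with blastn 2.17.0. Tables and plots were made with Python 3.11.15, pandas 2.3.3 and matplotlib 3.10.9.

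The rule for naming took the 10 genes with the highest mutant means, the 5 highest and 5 lowest differences between the mutants with any gene called there, genes with no wild-type reads, genes on the lists, and genes at the limits, which together covered all 16. Flanking genes, relatives and near copies were named after their values were seen. The 16 genes, the motifs and the gene lists were chosen with earlier results of these data known. On simulated data for hda19 minus wild type with 23685 genes, the limits called 7, 25, 50 and 50 of 50 genes changed 1.5-, 2-, 4- and 8-fold, and 264 of 23485 unchanged genes. The changed genes averaged at least 5 recovered reads before the change, and all genes shared a single dispersion. Genes with almost no wild-type reads were thus not among the changed ones, and the simulation does not describe calls of such genes. Intervals of read sums are exact Poisson intervals and cover counting error only. Alternatives were other limits, scalings, filters and pseudocounts, a replicate block, fits of 2 genotypes, limma-voom and the omission of each library.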

Additional observations from a re-analysis of the deposited data

How the results depend on the processing

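The number of genes that met the rule depended on its limits. It was 3 with a wild-type limit of 2, 4 with a mutant limit of 20 and 0 with a mutant limit of 50. Applied to recovered reads, the rule took 25 genes, among them all 16. With each library left out in turn it took between 19 and 54. These hold all 16 by construction, since leaving a library out only loosens the rule. With limits of 10 and 20 it took 19, of which 4 were among the 16, and median-ratio scaling gave the same 16. With an adjusted P value, 10 of 16 were called higher in hda19 and 15 in hdip1/2/3, and by limma-voom 6 and 11. The 416 recomputed fold changes of the 16 genes against the wild type were all still called under the other settings, also without each library (16 to 16 genes). Because the rule chose the genes by these contrasts, this was largely fixed in advance and is no test of the calls. The count between the mutants fell from 1 to 0 with an adjusted P value, a pseudocount of 0.1 or no filter on low values, and ranged from 0 to 1 with a library left out. The median log2 difference from the wild type moved to 4.40 in hda19 and 4.11 in hdip1/2/3 with a pseudocount of 0.1, which by its construction widens differences from values near 0. It ranged from 3.06 to 3.69 and from 3.02 to 3.51 with a library left out. With only the bases before the start, the shares of promoters with an RY repeat or a telo-box fell from 6.2% to 0%. No direction was reversed, which for the 16 genes against the wild type follows from the rule. Among single genes, 623 recomputed values kept their call and 40 lost it. The replicate numbers do not pair the samples, with correlations of -0.08, 0.13 and -0.08 between same-numbered libraries. With a replicate block, 16, 16 and 1 of the 16 genes were called, and 1548, 2085 and 847 genes in all in place of 1596, 2130 and 859.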
